A study of Homo sapiens with 42 samples.

Results

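THZ531 was set against YKL at 500 nM in HAP1 cells whose CDK7 carries the C312S change, in which serine replaces the cysteine at that position. The comparison held 6 of the 42 RNA-seq libraries of the study, 3 given THZ531 and 3 given YKL 500 nM, and they were chosen by the labels for cell line and treatment with no measured value. HAP1 is a near-haploid human line derived from a chronic myelogenous leukaemia. The whole series held 14 groups of 3 libraries, from C312S and WT HAP1 cells given THZ531, YKL at 500 nM or 2 µM, THZ531 with either dose of YKL (the combinations), THZ1, or DMSO. All cells were collected after 24 h. The labels give no dose for THZ531, so the doses of the agents are not known to be matched, and they do not say how many clones the C312S line stands for. Whether a group's 3 libraries are separate cultures is not given in the labels, so the p-values speak only to differences among libraries, and these could be technical.

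CDK7 forms the CDK-activating kinase with cyclin H (CCNH) and MNAT1. It phosphorylates the tail of RNA polymerase II early in transcription, as part of TFIIH, and it activates the kinases that drive the cell cycle. CDK12 and CDK13, each with cyclin K (CCNK), phosphorylate the same tail during elongation, and CDK12 is known for sustaining the expression of long DNA repair genes. THZ531 is a covalent inhibitor of CDK12 and CDK13. YKL is the agent of the series title, a covalent inhibitor of CDK7 that needs the cysteine that C312S cells lack.

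Values were FPKM, that is fragments scaled for transcript length and library depth, and changes were log2 differences of FPKM + 1, THZ531 minus YKL 500 nM, with limma's standard error (SE). A gene was called at a Benjamini-Hochberg adjusted p under 0.05 over all 12816 genes tested. Rises and falls are with THZ531 relative to YKL 500 nM, and do not say which agent moved a gene. The 6 libraries all carried the C312S side of 18 genes that separated the lines in the 5 other treatments. Against 47 genes that separated the lines under DMSO, 53.2% to 70.2% lay on the C312S side. The C312S DMSO and THZ1 libraries stood apart from the rest of the line, with 780085 to 913367 FPKM summed over genes, against 542909 to 597533 in the other C312S libraries. No test below sets the 6 libraries against them. Relative depth, read from the worth of 1 fragment in low genes, was 52.5%, 86.2% and 72.0% in the THZ531 libraries, with YKL 500 nM libraries at 100%, 40.2% and 65.2%. Of 25 blood cell marker genes, 21 stayed under 1 FPKM in all 6 libraries, and their summed level was 19.0 to 20.8 FPKM with THZ531 and 20.0 to 21.6 FPKM with YKL 500 nM. Of 18 epithelial and fibroblast genes, 13 stayed under 1 FPKM, with sums of 44.0 to 45.8 FPKM and 44.4 to 46.9 FPKM in the same order. So few blood markers were present that the leukaemic origin in the labels could not be read from them. The dividing-cell genes were well expressed: TOP2A averaged 151 FPKM with THZ531 and 129 FPKM with YKL 500 nM, and PCNA averaged 367 and 320 FPKM in those groups. MCM2 averaged 153 FPKM with THZ531 and 147 FPKM with YKL 500 nM, and MKI67 averaged 45.2 and 50.9 FPKM in those groups.

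Many genes differed between THZ531 and YKL 500 nM in C312S cells, nearly all by small amounts. Of the genes tested, 3332 (26.0%) were called. With THZ531, 1693 (13.2%) were higher and 1639 (12.8%) were lower. The median size of a called change was 0.25 log2 units. The larger changes were mostly falls: among called genes that moved by at least 0.5 log2 units, 22 rose and 140 fell. Only 8 genes (0.0624%) were called with at least 2-fold change, and 6 of these were rows of short RNAs that a poly(A) library measures poorly (MIR1909, MIR4321, MIR6765, SCARNA13, SNORA78 and SNORA81). The other 2 were EIF3CL, which shares reads with its near-identical copy EIF3C, and TLCD1; these 8 were named after their values were seen. The 3 libraries of each group did not overlap for 6068 genes (47.3%). With each library scaled to the same total FPKM, 2878 genes were called and 39.1% of them were higher, against 50.8% of calls on the deposited values. Without THZ531 replicate 3, 2335 genes were called, 1111 of them higher.

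**Figure D1:**
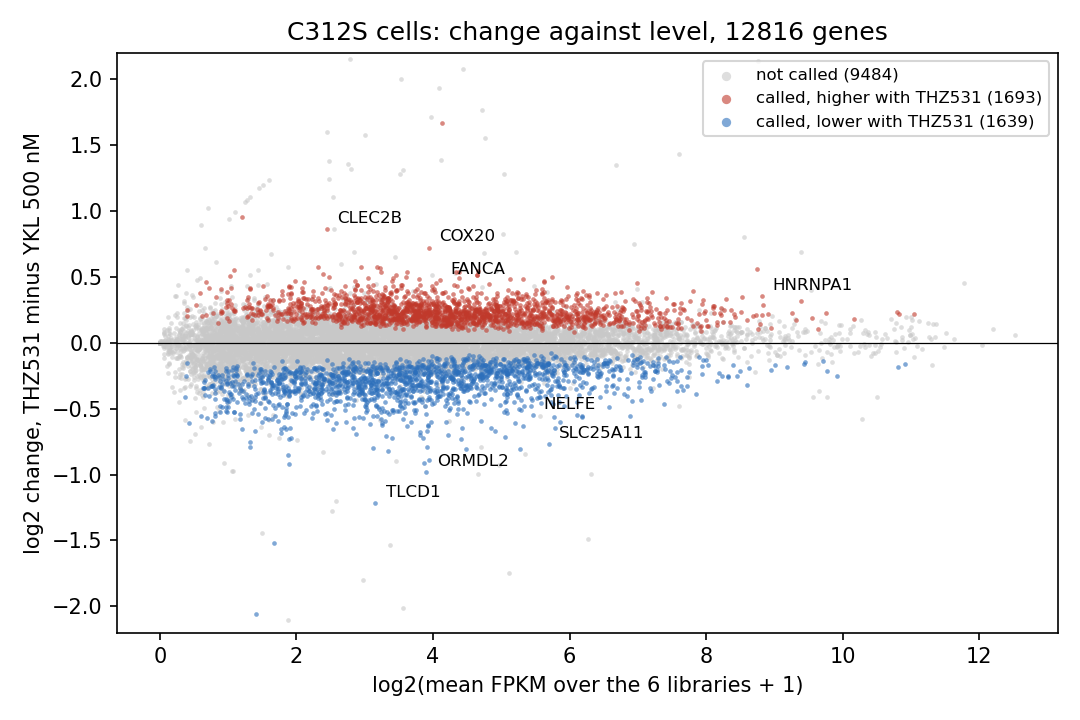
Each point is 1 of 12816 genes; the x axis is log2 of the mean FPKM over the 6 C312S libraries plus 1 and the y axis is the log2 change, THZ531 minus YKL 500 nM. Red points (1693) were called higher and blue points (1639) lower; most called changes lie within 0.5 log2 units, and 51 genes beyond the plotted range are not drawn.

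The 10 largest falls, taken from called genes with libraries apart, were led by TLCD1, ORMDL2 and UCP2. Their mean levels in YKL 500 nM libraries were about 10 FPKM or more. TLCD1, a membrane protein that shapes the lipid composition of the plasma membrane, had 5.05, 4.13 and 3.93 FPKM with THZ531, against 11.2, 10.3 and 12.9 FPKM with YKL 500 nM. Its highest THZ531 library lay below its lowest YKL library, and the change was -1.22 ± 0.12 log2 units (SE, n = 3 each; limma adjusted p = 2.01e-08). ORMDL2, an inhibitor of the first enzyme of sphingolipid synthesis, had 8.14, 9.44 and 9.61 FPKM with THZ531, against 16.7, 21.3 and 18.8 FPKM with YKL 500 nM. The groups were again apart, with a change of -0.98 ± 0.09 (limma adjusted p = 2.84e-09). UCP2, a carrier of the mitochondrial inner membrane, had 9.76, 8.58 and 9.24 FPKM with THZ531, against 18.3, 17.9 and 18.1 FPKM with YKL 500 nM. All THZ531 libraries were low and the YKL libraries were tightly grouped (SD 0.185 FPKM), for a change of -0.91 ± 0.08 (limma adjusted p = 1.49e-09). SLC25A11, the mitochondrial carrier that exchanges oxoglutarate for malate, had 34.9, 39.0 and 38.1 FPKM with THZ531, against 64.5, 64.4 and 63.9 FPKM with YKL 500 nM. No library crossed, and the change of -0.77 ± 0.05 had the smallest adjusted p of the 10 largest falls (2.12e-11 by limma).

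Other genes among the 10 largest falls changed by a like amount. NDUFAF3, an assembly factor of respiratory complex I, averaged 27.1 ± 2.83 FPKM with THZ531 and 48.0 ± 3.02 FPKM with YKL 500 nM (SD, n = 3 each), a change of -0.81. MPI, the isomerase that links fructose and mannose phosphates, averaged 10.0 ± 0.335 FPKM with THZ531 and 18.1 ± 0.663 FPKM with YKL 500 nM, a change of -0.79. PYCRL, a reductase of the proline pathway, fell by 0.82, and TMEM141 and DNASE1L1, a relative of DNase I, each fell by 0.80. These 5 were called by limma and had no overlap between groups, which the rule for naming required of all the largest rises and falls. Over all genes tested, 47.3% had no overlap.

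The promoters of the most changed genes are shown because the transcripts, but hardly the promoters, of the called classes differed in base composition. The table of promoters from RefSeq (GRCh38.p14) held an entry for 9485 of the 12816 genes, and the 250 bases before each start were read. Capitals mark CG pairs; GC boxes are GGGCGG on either strand, and CCAAT was searched on both strands. The first pair belongs to the largest falls and the second to the largest rises with an entry. The 4 sequences are at chr17:28726933-28727182 (TLCD1, minus strand), chr12:55817791-55818040 (ORMDL2, plus strand), chr1:244835226-244835475 (COX20, plus strand) and chr10:58334756-58335005 (UBE2D1, plus strand).
TLCD1: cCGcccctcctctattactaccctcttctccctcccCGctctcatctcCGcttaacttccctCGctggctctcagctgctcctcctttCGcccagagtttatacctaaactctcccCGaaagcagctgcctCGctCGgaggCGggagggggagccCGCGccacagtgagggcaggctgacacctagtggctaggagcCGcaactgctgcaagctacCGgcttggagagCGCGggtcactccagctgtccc
ORMDL2: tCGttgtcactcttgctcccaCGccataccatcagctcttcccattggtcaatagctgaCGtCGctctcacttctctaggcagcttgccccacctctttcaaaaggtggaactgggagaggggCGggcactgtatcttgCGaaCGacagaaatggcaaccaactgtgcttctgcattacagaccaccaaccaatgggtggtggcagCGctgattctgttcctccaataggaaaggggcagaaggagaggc
COX20: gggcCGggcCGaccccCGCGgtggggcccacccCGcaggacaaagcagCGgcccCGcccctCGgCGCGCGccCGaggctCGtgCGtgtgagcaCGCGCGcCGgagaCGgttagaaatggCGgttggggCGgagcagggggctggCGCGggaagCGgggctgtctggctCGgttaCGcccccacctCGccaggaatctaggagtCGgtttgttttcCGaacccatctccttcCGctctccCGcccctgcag
UBE2D1: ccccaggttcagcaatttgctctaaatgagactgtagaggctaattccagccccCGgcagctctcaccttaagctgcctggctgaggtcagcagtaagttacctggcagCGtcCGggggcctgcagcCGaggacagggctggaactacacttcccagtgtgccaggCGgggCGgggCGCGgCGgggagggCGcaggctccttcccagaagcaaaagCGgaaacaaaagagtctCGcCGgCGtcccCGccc

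TLCD1 held 15 CG pairs and 1 GC box in this window, and ORMDL2 held 8 CG pairs, 1 GC box and 3 CCAAT matches. COX20 held 31 CG pairs and 3 GC boxes, and UBE2D1 held 15 CG pairs and 2 GC boxes. As classes the promoters were close in base composition: the median GC content was 64.4% for 1341 genes called higher, 66.0% for 1204 called lower and 65.6% for all 9485. GC boxes stood in 67.4% of promoters of genes called higher, 71.4% of those called lower and 69.1% of all. CCAAT stood in 38.4%, 36.7% and 35.5% of the same classes, and CCGGAA, searched on both strands, in 28.1%, 29% and 25.9%. TATAAA on either strand stood in 5.59%, 3.32% and 4.85%, and CACGTG in 9.02%, 9.22% and 9.06%. These shares are descriptions, with no test.

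The rises, also taken from called genes with libraries apart, were smaller, with CLEC2B and COX20 at the top. CLEC2B, a cell surface lectin known as a ligand of a natural killer cell receptor, had 5.23, 6.71 and 6.12 FPKM with THZ531, against 2.63, 3.19 and 2.72 FPKM with YKL 500 nM. All THZ531 libraries were the higher ones, and the change was 0.87 ± 0.09 log2 units (SE, n = 3 each; limma adjusted p = 3.78e-08). COX20, which helps to assemble cytochrome c oxidase, had 16.6, 19.4 and 18.3 FPKM with THZ531, against 10.3, 10.6 and 10.7 FPKM with YKL 500 nM. The groups did not overlap, with a change of 0.72 ± 0.08 (limma adjusted p = 1.65e-07). SMARCA2, an ATPase of the SWI/SNF chromatin remodellers, averaged 8.19 ± 0.607 FPKM with THZ531 and 5.17 ± 0.228 FPKM with YKL 500 nM (SD), a change of 0.57. ARRDC3, an alpha-arrestin, averaged 10.2 ± 0.627 FPKM with THZ531 and 6.54 ± 0.227 FPKM with YKL 500 nM, a change of 0.57. The ubiquitin-conjugating enzyme UBE2D1 rose by 0.58, SCOC by 0.54, GLMN by 0.54, LARP1B by 0.54 and the zinc finger gene ZNF92 by 0.54. RPL41, a ribosomal protein with many processed copies, had 465, 620 and 444 FPKM with THZ531, against 314, 345 and 369 FPKM with YKL 500 nM. Its replicate 2 stood well above the other THZ531 libraries, and the change was 0.56 ± 0.13 (limma adjusted p = 0.00213).

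**Figure D2:**
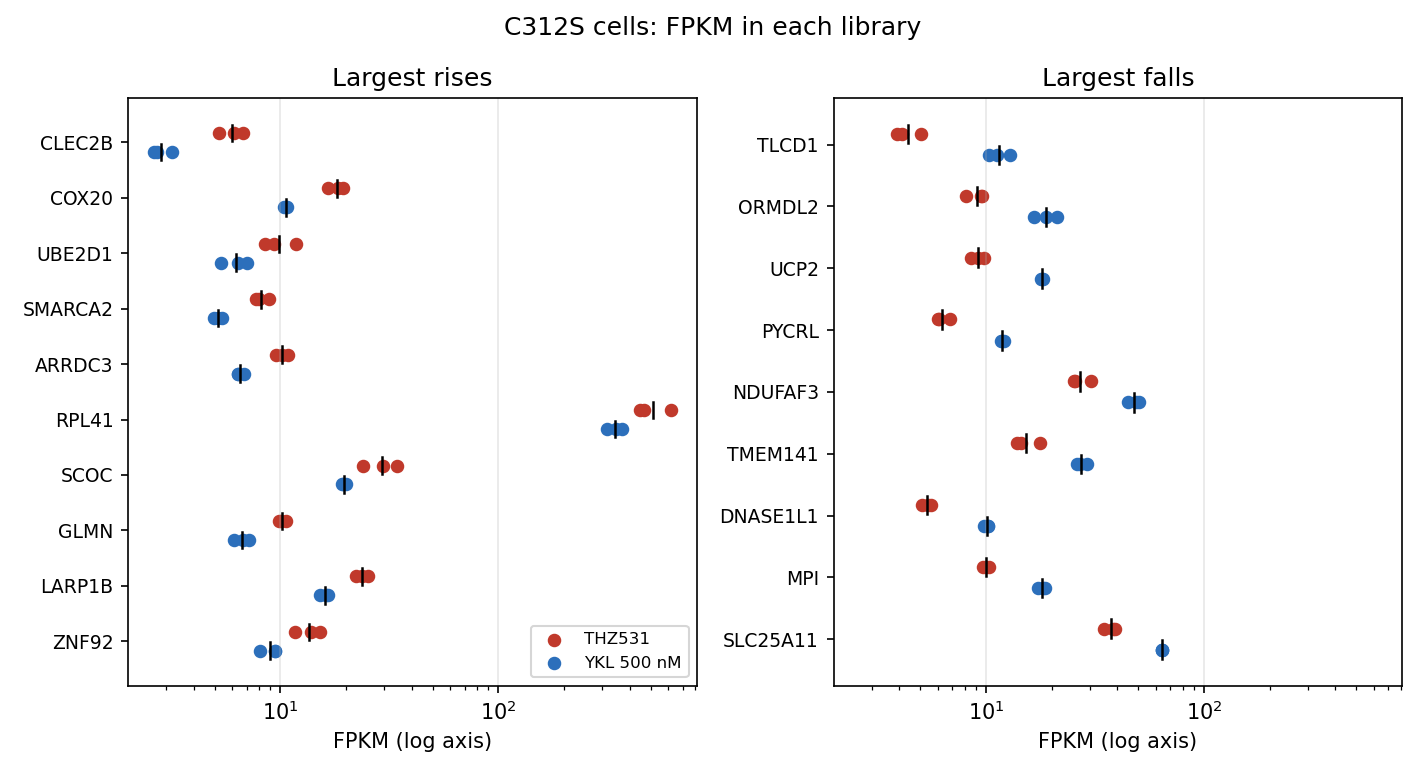
FPKM (log axis) of the 10 largest rises and of 9 of the 10 largest falls in the 3 THZ531 libraries (red) and the 3 YKL 500 nM libraries (blue) of C312S cells; short black bars are group means. No gene shown has overlapping groups, which the rule for naming required, and UCP2 and SLC25A11 show the tightest YKL libraries.

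The targeted kinases themselves were transcribed at much the same level under both agents, with CDK7 the most different. CDK7 had 37.9, 41.1 and 40.6 FPKM with THZ531, against 33.1, 32.2 and 31.1 FPKM with YKL 500 nM. Every THZ531 library was above every YKL library, a change of 0.30 ± 0.06 (limma adjusted p = 0.000202). CDK12 had 26.0, 23.9 and 23.8 FPKM with THZ531, against 22.1, 21.5 and 21.4 FPKM with YKL 500 nM. CDK13 had 11.3, 11 and 10.3 FPKM with THZ531, against 10.1, 9.07 and 9.45 FPKM with YKL 500 nM. Both kinases rose by 0.17 ± 0.06 (limma adjusted p = 0.0221 for CDK12 and 0.0243 for CDK13). These last calls were fragile: the adjusted p of CDK12 was 0.12 without THZ531 replicate 1, 0.0644 without YKL replicate 2 and 0.0654 without YKL replicate 3. That of CDK13 lay between 0.0665 and 0.12 without THZ531 replicate 1 or 2 or YKL replicate 2 or 3, and neither gene was called with equal total FPKM.

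Their partners changed little. CCNK, the cyclin of CDK12 and CDK13, averaged 39.5 ± 2.19 FPKM with THZ531 and 38.2 ± 1.04 FPKM with YKL 500 nM (SD), a change of 0.04 that did not pass the test. CCNH averaged 45.0 ± 2.11 FPKM with THZ531 and 40.7 ± 1.86 FPKM with YKL 500 nM (limma adjusted p = 0.113). MNAT1 averaged 30.7 ± 1.23 FPKM with THZ531 and 26.6 ± 0.531 FPKM with YKL 500 nM, a change of 0.20 (limma adjusted p = 0.0642). The limma adjusted p of MNAT1 was 0.0128 with the spread taken from the compared groups alone and 0.0446 with a replicate block. With the trends in GC content and length removed, its change was -0.01. CDK9, the kinase that releases paused polymerase, averaged 16.6 ± 0.373 FPKM with THZ531 and 18.0 ± 0.553 FPKM with YKL 500 nM (limma adjusted p = 0.225). HEXIM1, an inhibitor of CDK9, rose by 0.14 ± 0.05 (limma adjusted p = 0.0293), but its adjusted p was between 0.0531 and 0.0982 when any 1 of the 6 libraries was left out.

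Across the transcription machinery, calls went both ways. Of 10 members of the CDK-activating kinase and TFIIH, 2 rose and 0 fell (20% and 0%, against 13.2% and 12.8% of all genes tested). The median change was 0.13, against 0.00 over all genes tested. With the trends in GC content and length removed, as described below, 1 rose and 0 fell, with a median of 0.01. The second to rise on the deposited values was GTF2H3, a TFIIH subunit (0.21 ± 0.05). Of 38 genes of CDK12, CDK13 and their partners in elongation, 9 rose and 4 fell (23.7% and 10.5%), with a median of 0.03. The count of rises was 4 or 5 without THZ531 replicate 1, without THZ531 replicate 2 or without YKL replicate 3, and the count of falls was 2 without replicate 3 of either group. TCEA1, the elongation factor that restarts stalled polymerase, averaged 67.4 ± 2.02 FPKM with THZ531 and 53.5 ± 1.46 FPKM with YKL 500 nM, a change of 0.33. CCNC, the cyclin of the Mediator kinases, averaged 49.7 ± 2.75 FPKM with THZ531 and 38.1 ± 0.95 FPKM with YKL 500 nM, a change of 0.37. NELFE, a subunit of the negative elongation factor that holds polymerase at the pause, had 33.8, 35.1 and 35.5 FPKM with THZ531, against 51.5, 51.8 and 51.0 FPKM with YKL 500 nM. This gap of over 15 FPKM between groups was the largest fall of the list, -0.55 ± 0.06 (limma adjusted p = 6.76e-08).

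RNA polymerase II subunits had 0 rises and 4 falls among 12 members, with a median of -0.05. The shares were 0% and 33.3%, against 13.2% and 12.8% of all genes tested. Under spike-in scaling, which raises the whole profile, the subunits had 7 rises and 0 falls. With the trends in GC content and length removed, an alternative described below, they had 0 rises and 1 fall. POLR2G averaged 95.4 ± 4.0 FPKM with THZ531 and 125 ± 6.81 FPKM with YKL 500 nM (SD), a change of -0.39. POLR2A, the largest subunit, had 70.1, 64.3 and 59.3 FPKM with THZ531, against 79.4, 75.1 and 71.2 FPKM with YKL 500 nM, a change of -0.22 ± 0.08 (limma adjusted p = 0.0336). The groups were apart by about 1 FPKM at their nearest, and without THZ531 replicate 2 or 3, or YKL replicate 1 or 2, the adjusted p was 0.075 to 0.189. POLR2E fell by 0.19 (limma adjusted p = 0.0192), and its adjusted p was 0.0528 to 0.0761 without THZ531 replicate 3 or YKL replicate 2 or 3. With these single libraries left out, 1 or 2 falls remained in the list count for THZ531 replicate 3, YKL replicate 2 and YKL replicate 3.

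Repair genes known for needing CDK12 did not move as a block: of 44 tested, 14 rose and 7 fell (31.8% and 15.9%, against 13.2% and 12.8% of all genes tested), with a median of 0.05. With equal total FPKM, 7 rose and 7 fell. On the deposited scaling, rises numbered 6 without THZ531 replicate 3, and 7 or 8 without any 1 of the YKL libraries. FANCA, a core Fanconi anaemia protein, had 19.2, 19.6 and 18.4 FPKM with THZ531, against 13.6, 14 and 12.7 FPKM with YKL 500 nM. It was the strongest rise in the list, clear of all YKL libraries, at 0.48 ± 0.04 (limma adjusted p = 4.72e-09). BRCA1, a factor of homologous recombination, had 15.3, 13.7 and 14.7 FPKM with THZ531, against 17.5, 18.0 and 17.8 FPKM with YKL 500 nM. It went the other way with no overlap, -0.27 ± 0.05 (limma adjusted p = 0.000309). MUS81, a nuclease that resolves DNA joints, fell by 0.37, and MRE11A, the nuclease that starts end resection, rose by 0.23. ATM, the kinase that signals double strand breaks, averaged 4.16 ± 0.168 FPKM with THZ531 and 4.16 ± 0.102 FPKM with YKL 500 nM. The 95% interval of its change ran from -0.18 to 0.18.

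Of 34 cleavage and polyadenylation factors, 10 rose and 8 fell (29.4% and 23.5%, against 13.2% and 12.8% of all genes tested), with a median of -0.01. With the trends in GC content and length removed, 4 rose and 6 fell. The rises numbered 5 or 6 without THZ531 replicate 2 or 3 or any 1 of the YKL libraries. PCF11, a factor that couples 3′ cleavage to termination, averaged 16.2 ± 0.48 FPKM with THZ531 and 13.6 ± 0.063 FPKM with YKL 500 nM (SD), a change of 0.23. CPSF6, which guides poly(A) site choice, rose by 0.21. The scaffold SYMPK fell by 0.35 and INTS5, of the Integrator complex, fell by 0.34.

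Among cell cycle genes on the deposited values, those of G2 and mitosis leaned upward and those of S phase did not. Of 56 G2 and mitosis genes, 23 rose and 5 fell (41.1% and 8.93%, against 13.2% and 12.8% of all genes tested), with a median change of 0.10. With equal total FPKM these counts were 21 and 6. CKS2, a small partner of the cell cycle kinases, had 329, 358 and 352 FPKM with THZ531, against 282, 276 and 268 FPKM with YKL 500 nM, a change of 0.33 ± 0.05 (limma adjusted p = 1.18e-05). NCAPH, a condensin subunit, averaged 20.7 ± 0.592 FPKM with THZ531 and 16.5 ± 0.462 FPKM with YKL 500 nM (SD), a change of 0.31. The falls included CDC20, which switches on the ligase that starts anaphase, with 181, 186 and 194 FPKM under THZ531, against 237, 233 and 234 FPKM under YKL 500 nM. Its groups were far apart, at -0.33 ± 0.05 (limma adjusted p = 4.35e-06), and the phosphatase CDC25B also fell by 0.33. Of 54 S phase genes, 8 rose and 9 fell (14.8% and 16.7%, near the shares of all genes tested), with a median of 0.01. The rises numbered 4 without THZ531 replicate 3 and the falls 5 without THZ531 replicate 2. With the trends in GC content and length removed, 12 S phase genes rose and 6 fell. Of all genes tested, 11.6% were then higher and 10.8% lower. ASF1B, a histone chaperone, averaged 58.0 ± 1.95 FPKM with THZ531 and 85.8 ± 1.11 FPKM with YKL 500 nM, a change of -0.56, and GINS4, of the replicative helicase, fell by 0.45. TYMS, which makes thymidylate, rose by 0.17 and CHAF1B, of chromatin assembly factor 1, by 0.21.

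Single regulators of growth and death moved by little. E2F1 averaged 23.9 ± 0.42 FPKM with THZ531 and 27.2 ± 1.04 FPKM with YKL 500 nM, a change of -0.18 (limma adjusted p = 0.0528). The limma adjusted p of E2F1 was 0.0145 with the spread taken from the compared groups alone and 0.0371 with a replicate block. With the trends in GC content and length removed, its change was -0.05. CCNE2, a cyclin of S phase entry, rose by 0.26 ± 0.08 (limma adjusted p = 0.0141), with an adjusted p of 0.0549 without THZ531 replicate 2 and 0.0535 without THZ531 replicate 3. MYC averaged 129 ± 7.79 FPKM with THZ531 and 121 ± 0.89 FPKM with YKL 500 nM (limma adjusted p = 0.193). MCL1, an inhibitor of apoptosis, rose by 0.17 (limma adjusted p = 0.00971; 0.0563 without THZ531 replicate 2). CDKN1A, the p21 inhibitor, had 4.47, 3.73 and 4.45 FPKM with THZ531, against 5.41, 4.88 and 5.45 FPKM with YKL 500 nM. Its change was -0.26 ± 0.10 (limma adjusted p = 0.0429), and the adjusted p was 0.0564 to 0.201 without THZ531 replicate 2 or 3 or YKL replicate 1 or 3. Of 28 p53 target genes, 3 rose and 5 fell (10.7% and 17.9%, against 13.2% and 12.8% of all genes tested). The falls were 3 without YKL replicate 1 or without YKL replicate 3. BAX, which opens mitochondria to apoptosis, fell by 0.38 and XPC, a repair factor, by 0.24. MDM2, the ligase of p53, rose by 0.19. Of 23 BCL2 family and cell death genes, 4 rose and 2 fell (17.4% and 8.7%), with 1 fall without THZ531 replicate 2. BNIP3L, a receptor for the removal of mitochondria, rose by 0.50.

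Of 41 SR and hnRNP splicing factors, 12 rose and 0 fell (29.3% and 0%, against 13.2% and 12.8% of all genes tested), with a median of 0.09. With equal total FPKM, 9 rose and 0 fell. HNRNPA1 had 471, 556 and 498 FPKM with THZ531, against 397, 406 and 385 FPKM with YKL 500 nM. The groups were apart, at 0.36 ± 0.05 (limma adjusted p = 1.6e-05), though its many processed copies could share reads. HNRNPR rose by 0.22. Of 28 cholesterol genes, 10 were higher and 3 lower (35.7% and 10.7%), with a median of 0.02. With the trends in GC content and length removed, 7 were higher and 3 lower. INSIG1, the sterol sensor of the endoplasmic reticulum, averaged 12.2 ± 0.646 FPKM with THZ531 and 8.90 ± 0.458 FPKM with YKL 500 nM, a change of 0.41, and SQLE, an epoxidase of the pathway, rose by 0.25. TM7SF2, a late sterol reductase, fell by 0.51 and PMVK, a mevalonate pathway kinase, by 0.29.

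**Figure D3:**
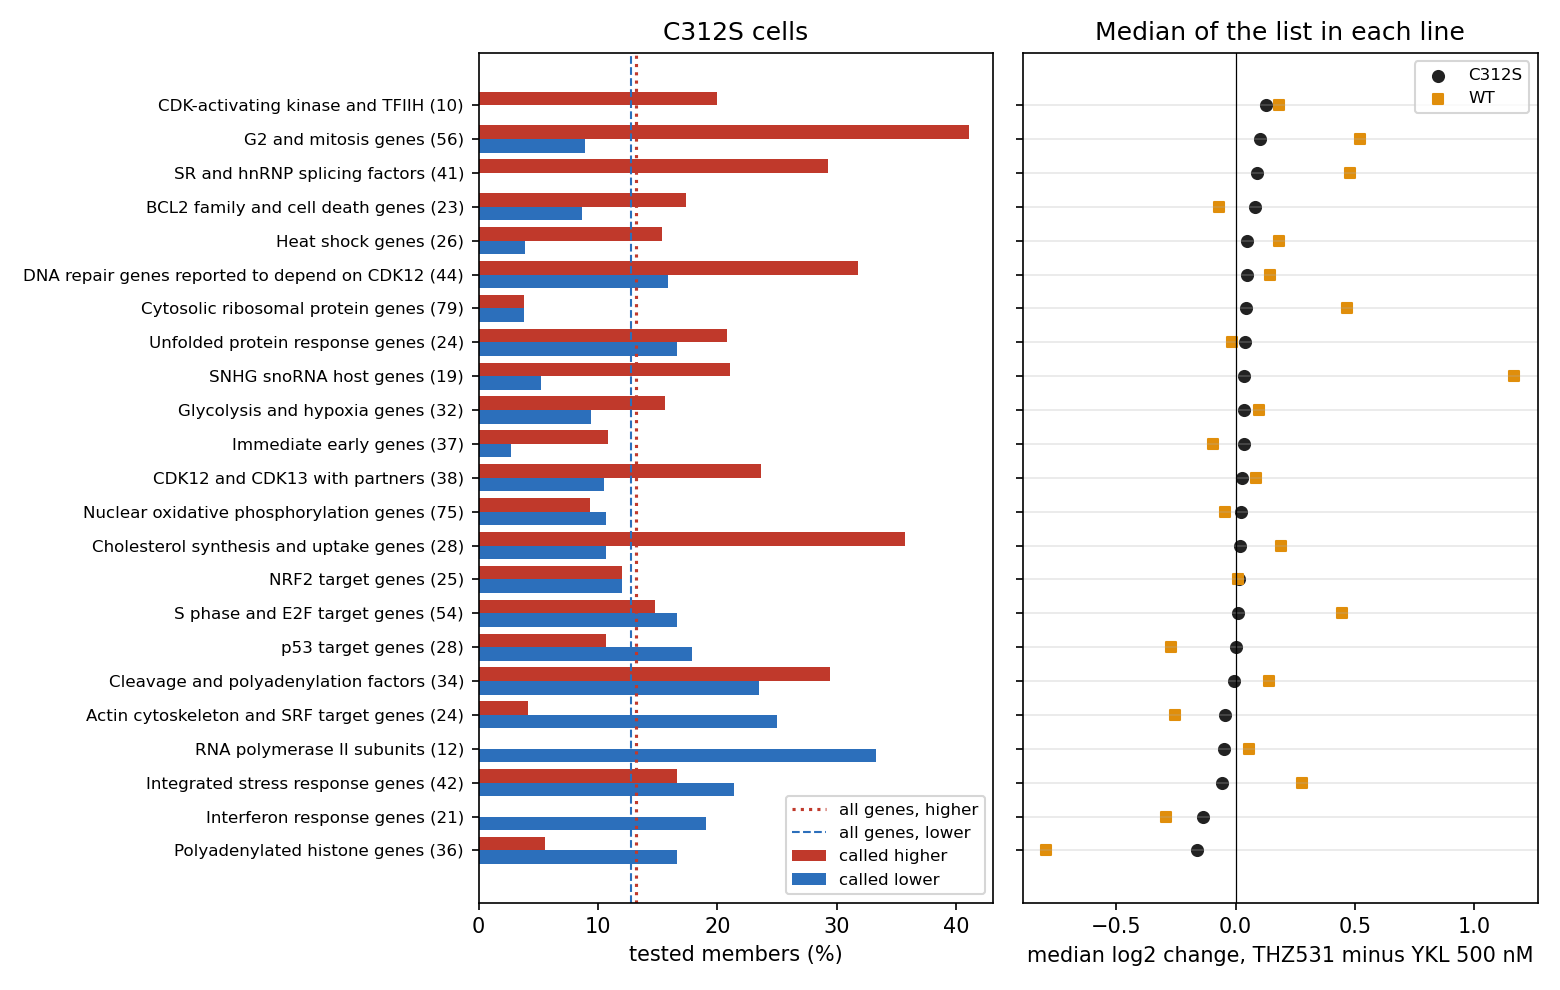
Left, the share of each list's tested members (number in brackets) called higher (red) or lower (blue) with THZ531 in C312S cells, with dotted and dashed lines at 13.2% and 12.8%, the shares over all genes tested. Right, the median log2 change of each list, THZ531 minus YKL 500 nM, in C312S cells (black) and in WT cells (orange); the C312S medians lie between -0.16 and 0.13.

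In the remaining lists, calls on the deposited values went both ways or were few. Of all genes tested, 13.2% were higher and 12.8% lower. The shares were 16.7% and 21.4% for integrated stress response genes, and 21.1% and 5.26% for small nucleolar RNA host genes. Of 42 integrated stress response genes, 7 rose and 9 fell; PCK2, the mitochondrial enzyme that makes phosphoenolpyruvate, averaged 21.5 ± 0.359 FPKM with THZ531 and 34.3 ± 0.586 FPKM with YKL 500 nM (SD), a change of -0.65, and SLC7A11, the cystine transporter, rose by 0.39. Ribosomal protein genes held 3 rises and 3 falls among 79, and nuclear genes of oxidative phosphorylation 7 rises and 8 falls among 75, with the complex I subunits NDUFA5 at 0.44 and NDUFA3 at -0.36. With the trends in GC content and length described below removed, ribosomal protein genes held 21 rises and 0 falls, and oxidative phosphorylation genes 11 rises and 4 falls. The 19 small nucleolar RNA host genes then held 8 rises and 0 falls. Over all genes tested, 11.6% were then higher and 10.8% lower. On the deposited values the counts were as follows. Small nucleolar RNA host genes of the SNHG family held 4 rises and 1 fall among 19, led by SNHG6 (0.39) and the host gene TAF1D (0.40). SNHG12 rose by 0.28 (limma adjusted p = 0.0172), with an adjusted p of 0.0524 to 0.105 without THZ531 replicate 2 or 3 or YKL replicate 1. Of 36 histone rows, which in a poly(A) library count only polyadenylated transcripts, 2 rose and 6 fell, with a median of -0.16. HIST1H2AC fell by 0.37 ± 0.11 (limma adjusted p = 0.0154; 0.063 without THZ531 replicate 3 and 0.0576 without YKL replicate 3), and H2AFX, the histone that marks DNA breaks, fell by 0.34. HIST1H2BK averaged 25.6 ± 2.39 FPKM with THZ531 and 23.4 ± 0.469 FPKM with YKL 500 nM (limma adjusted p = 0.247). RPL22L1, a ribosomal protein paralog, had 93.7, 106 and 96.5 FPKM with THZ531, against 80.1, 81.3 and 84.0 FPKM with YKL 500 nM, a change of 0.27 (limma adjusted p = 0.0333). Its adjusted p was 0.0553 to 0.144 without THZ531 replicate 2 or 3 or any 1 of the YKL libraries.

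Rises and falls in the other lists are set against 13.2% and 12.8% of all genes tested. They numbered 5 and 4 of 24 for the unfolded protein response (20.8% and 16.7%) and 4 and 1 of 26 for heat shock (15.4% and 3.85%). NRF2 targets held 3 and 3 of 25 (12% and 12%), and immediate early genes 4 and 1 of 37 (10.8% and 2.7%). Glycolysis and hypoxia genes held 5 and 3 of 32 (15.6% and 9.38%), and interferon response genes 0 and 4 of 21 (0% and 19.0%). Actin and SRF targets held 1 rise and 6 falls of 24 (4.17% and 25%), with 1 fall when any library other than THZ531 replicate 1 was left out. With the trends in GC content and length removed, immediate early genes held 10 rises and 0 falls, with a median of 0.14 against 0.03 on the deposited values. Actin and SRF targets then held 4 rises and 1 fall. The shares over all genes tested were then 11.6% higher and 10.8% lower. None of the 7 blood genes and 6 epithelial or fibroblast genes tested was called. Counts this small moved when 1 library was left out. Rises of immediate early genes ranged from 0 (without THZ531 replicate 2) to 5 (without THZ531 replicate 3), and those of heat shock genes were 2 without any library other than THZ531 replicate 2. Falls of histone genes ranged from 2 (without THZ531 replicate 3) to 6, rises of ribosomal protein genes from 1 (without THZ531 replicate 2) to 6 (without THZ531 replicate 1), and rises of SNHG genes from 2 (without THZ531 replicate 2 or 3 or YKL replicate 1) to 5. Falls of oxidative phosphorylation genes were 3 without YKL replicate 3, and its rises were 4 without THZ531 replicate 2 or YKL replicate 1 or 2. The counts of G2 and mitosis genes, of splicing factors and of cholesterol genes moved by less than 1.5 times.

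The direction of change went with the base composition of the transcript. Genes called higher had a median transcript GC content of 40.8% (n = 1639), those called lower 56.1% (n = 1537) and all genes 48.7% (n = 12143, the 94.7% of tested genes matched to GENCODE). In the fifth of genes with the lowest GC, 35.9% were called higher and 1.44% lower, with a median change of 0.13. In the fifth with the highest GC, 0.741% were called higher and 22.5% lower, with a median of -0.11. Spearman's rho between log2 change and GC over genes was -0.54; genes are not independent replicates. Gene span went the same way more weakly, with rho of 0.24: in the fifth of shortest spans, up to 9.29 kb, 4.41% were higher and 23.6% lower, and in the fifth of longest spans 14.8% were higher and 6.05% lower. Within classes of GC content, rises at low GC did not go steadily with span, and falls were fewer at long spans at high GC. In the GC class with the lowest values, 17.4% were higher in the shortest span class, 47.3% in the second and 29.1% in the longest. In the next GC class 13.9% were higher in the shortest span class, 25.4% in the middle one and 14.7% in the longest. In the GC class with the highest values, 28.3% were lower in the shortest span class and 14.6% in the longest.

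This pattern separated the libraries themselves. The rho between GC and a library's deviation from the average of all libraries was 0.07 to 0.18 in the THZ531 libraries and 0.52 to 0.55 in the YKL 500 nM libraries. In the combination of THZ531 with YKL 500 nM the 3 libraries ranged from -0.33 to 0.51, a spread within 1 treatment wider than the gap between the groups compared. Whether the pattern with GC came from the agents or from technical differences among libraries was not tested. With smooth trends in GC, transcript length and span removed from each library, an alternative chosen after seeing the data, 2713 of 12143 genes were called (22.3%), 1406 higher (11.6%) and 1307 lower (10.8%). Of the 3176 calls with these properties known, 1788 (56.3%) were called in the same direction and 0 in the opposite one. Among the 20 largest changes, the 19 with known properties were all still called, TLCD1 at -1.10, ORMDL2 at -0.94, UCP2 at -0.80 and CLEC2B at 0.67. Of 68 called genes named in the text, 20 had a change smaller by over 1.5 times. Among those still called were UBE2D1 (0.32), GLMN (0.30), ZNF92 (0.31), LARP1B (0.35), CDK7 (0.16), TCEA1 (0.19), CCNC (0.21), SLC7A11 (0.23), NDUFA5 (0.25) and RABGGTB (0.12). The falls still called with such a smaller change were H2AFX (-0.15), INTS5 (-0.21), CDC20 (-0.21) and PMVK (-0.19). The counts of G2 and mitosis genes were then 19 higher and 6 lower, and of S phase genes 12 and 6. Those of splicing factors were 13 and 2, and of CDK12-dependent repair genes 5 and 9. POLR2A (-0.18, limma adjusted p = 0.119), POLR2E (-0.07), CDKN1A (-0.17), CCNE2 (0.09), CPSF6 (0.05), HNRNPR (0.04) and GTF2H3 (0.07) were no longer called, and MYC was (0.19, limma adjusted p = 0.00298).

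**Figure D4:**
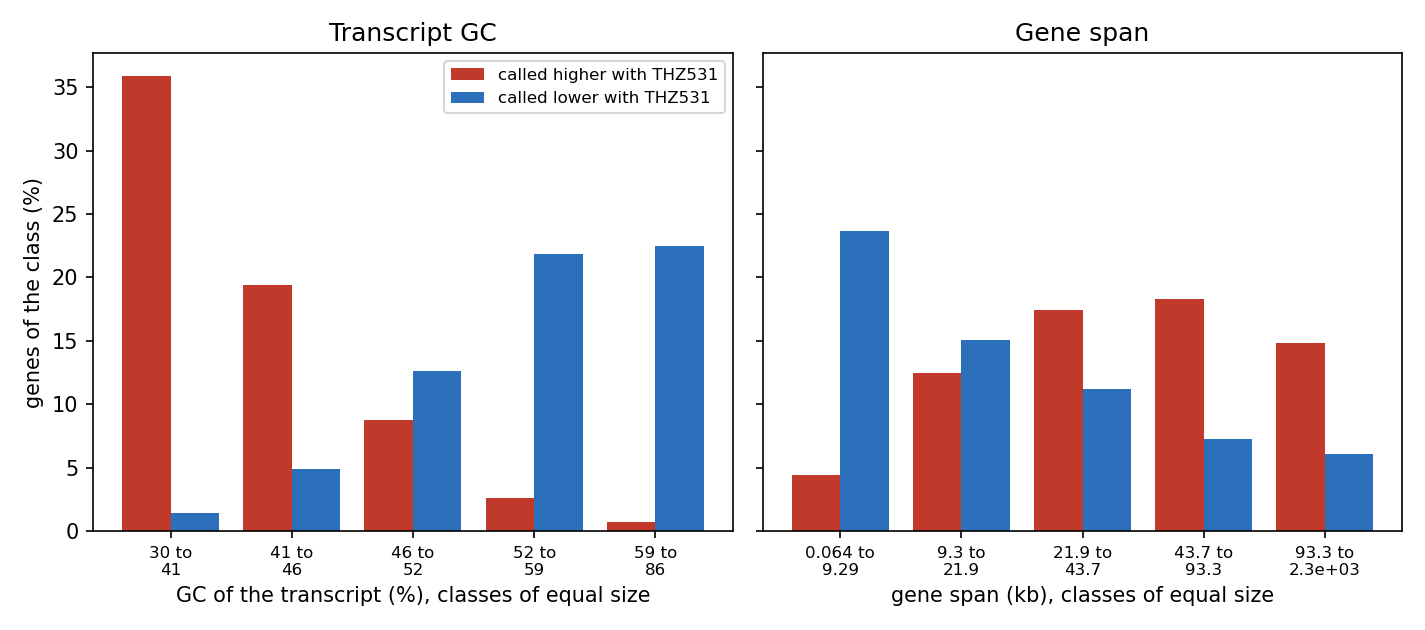
Share of genes called higher (red) and lower (blue) with THZ531 in C312S cells, in 5 classes of equal size by transcript GC content (left, percent) and by gene span (right, kb). Higher calls drop from 35.9% to 0.741% across the GC classes, and lower calls go from 1.44% to 22.5%.

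Comparisons that used none of the 6 libraries, added after seeing the data, were read for the same genes. In C312S cells, the combination with YKL 2 µM against YKL 2 µM alone had 29.3% of genes called. Of the 1693 genes higher with THZ531 in the comparison at 500 nM, 90.4% had a positive sign there and 51.2% were called higher, against 51.8% and 16.1% of all genes. Of the 1639 genes lower with THZ531, 85.5% had a negative sign there and 45.1% were called lower, against 47.8% and 13.3% of all genes. In WT cells, THZ531 against DMSO had 46.9% of genes called; 58.0% of the genes higher in C312S cells were called higher there and 81.3% of the lower ones were called lower, against 24.0% and 22.9% of all genes. In both comparisons the change also went with GC content, with rho over genes of -0.49 for the combination and -0.46 for WT THZ531. All 10 of the largest falls were called lower in both, with the smallest fall in the combination for TMEM141 (-0.24). Of the 10 largest rises, RPL41 (-0.05) and UBE2D1 (0.28) were not called in the combination. In WT cells given THZ531 against DMSO, UBE2D1 (0.17), SCOC (-0.05), GLMN (0.02) and ZNF92 (0.20) were not called.

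Levels in the other C312S groups showed 2 kinds of order. UCP2 averaged 9.19 ± 0.589 FPKM with THZ531, 9.80 ± 1.18 FPKM and 10.5 ± 0.681 FPKM in the combinations with YKL 500 nM and 2 µM, and 18.1 ± 0.185 FPKM and 17.9 ± 0.926 FPKM with YKL 500 nM and 2 µM alone (SD, n = 3 each). All groups with THZ531 lay below all groups with YKL alone, and neighbours within each set overlapped. TLCD1 averaged 4.37 ± 0.598 FPKM with THZ531, 5.87 ± 0.365 FPKM and 8.40 ± 0.385 FPKM in the combinations, and 11.5 ± 1.30 FPKM and 14.2 ± 1.05 FPKM with YKL alone. SLC25A11 averaged 37.3 ± 2.14 FPKM with THZ531, 41.1 ± 2.75 FPKM and 51.0 ± 2.75 FPKM in the combinations, and 64.3 ± 0.302 FPKM and 64.4 ± 2.11 FPKM with YKL alone. For these genes the combination with the higher dose stood between THZ531 and YKL alone. HIST1H2AC was of another kind: it averaged 5.74 ± 0.336 FPKM with THZ531, 17.2 ± 2.19 FPKM and 35.6 ± 3.42 FPKM in the combinations, and 7.71 ± 0.292 FPKM and 18.4 ± 0.497 FPKM with YKL alone. It stood higher at 2 µM than at 500 nM YKL with and without THZ531. In the C312S DMSO libraries, which stood apart, UCP2 averaged 12.3 ± 1.10 FPKM and TLCD1 7.60 ± 1.5 FPKM, between the groups compared. Among the rises, CLEC2B averaged 7.64 ± 0.637 FPKM and COX20 23.9 ± 1.28 FPKM there, above both groups compared. FANCA averaged 10.7 ± 0.914 FPKM there, below both groups. Which agent moved a gene was not tested.

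**Figure D5:**
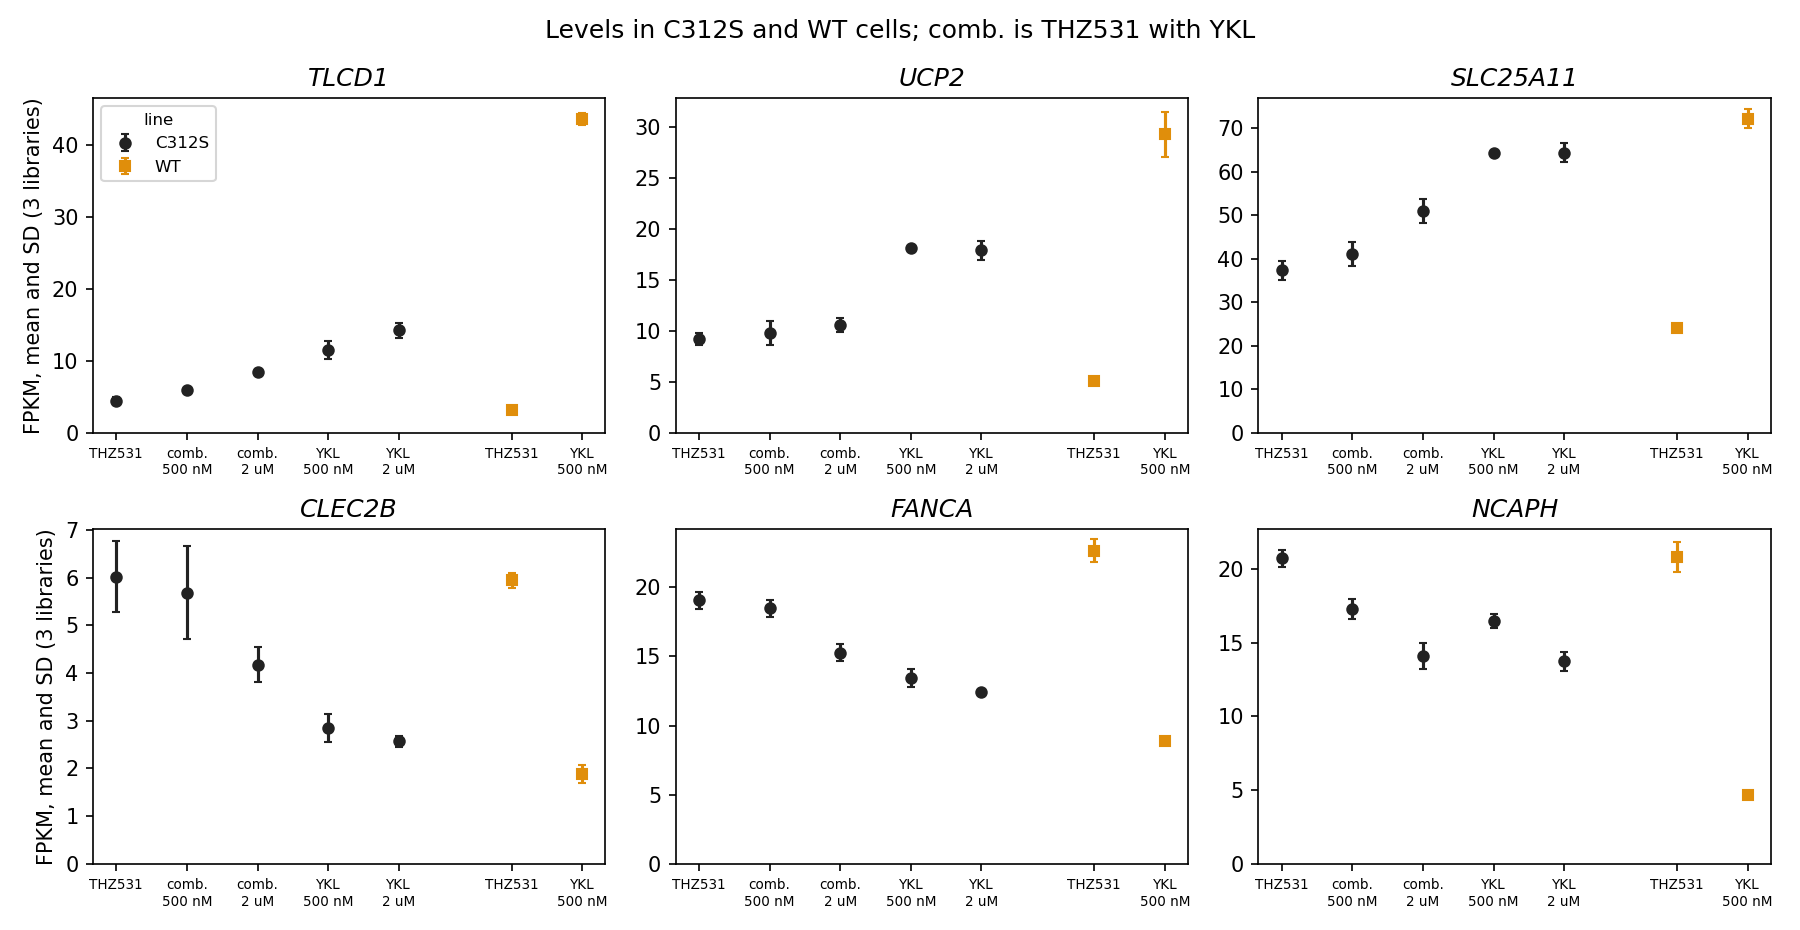
Mean FPKM with SD (3 libraries) of 6 genes in C312S cells (black circles) given THZ531, THZ531 with YKL 500 nM or 2 µM (comb.), or YKL alone, and in WT cells (orange squares) given THZ531 or YKL 500 nM. TLCD1 stands at 4.37 and 11.5 FPKM with THZ531 and YKL 500 nM in C312S cells, and at 3.14 and 43.5 FPKM in WT cells.

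The same contrast was far wider in WT cells, which keep the cysteine. There 8601 genes (67.1%) were called, 4398 higher (34.3%) and 4203 lower (32.8%). At least 2-fold change was seen in 8 called genes in C312S cells and in 614 (4.79%) in WT cells. The difference between lines, C312S minus WT, was called for 5960 genes (46.5%), 2944 positive (23.0%) and 3016 negative (23.5%). These splits depended on scaling: with equal total FPKM, 2724 of 8506 WT calls were higher, and 4371 of 6113 differences between lines were positive, as the median gene moved by 0.12 in the difference.

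The largest falls were deeper in WT cells. TLCD1 averaged 3.14 FPKM with THZ531 and 43.5 FPKM with YKL 500 nM in WT cells, a change of -3.44, so its C312S minus WT difference was 2.22 (limma adjusted p = 7.85e-12). UCP2 averaged 5.02 FPKM with THZ531 and 29.3 FPKM with YKL 500 nM in WT cells, with a difference of 1.42. NELFE averaged 25.7 FPKM with THZ531 and 84.5 FPKM with YKL 500 nM in WT cells, with a difference of 1.13. Against WT DMSO in place of YKL 500 nM, the THZ531 changes were smaller: -1.51 for TLCD1, -1.51 for UCP2 and -0.91 for NELFE. All 10 of the largest C312S falls were called lower in WT cells too. For NGFR, a neurotrophin receptor, the gap stood in WT cells: 1.47 ± 0.103 FPKM with THZ531 and 1.45 ± 0.034 FPKM with YKL 500 nM in C312S cells, against 1.83 FPKM with THZ531 and 11.9 FPKM with YKL 500 nM in WT cells. CDKN1A averaged 3.04 FPKM with THZ531 and 13.6 FPKM with YKL 500 nM in WT cells, with a difference of 1.60 (limma adjusted p = 4.84e-11).

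The next genes were named for their large negative difference between lines, so their pattern is a description. NCAPH averaged 20.8 FPKM with THZ531 and 4.66 FPKM with YKL 500 nM in WT cells, and its difference between lines was -1.63. RPL22L1 averaged 58.8 FPKM with THZ531 and 13.2 FPKM with YKL 500 nM in WT cells, with a difference of -1.81 (limma adjusted p = 1.55e-12). SNHG12 averaged 24.0 FPKM with THZ531 and 4.74 FPKM with YKL 500 nM in WT cells, with a difference of -1.85. RABGGTB, a subunit of the enzyme that attaches lipids to Rab proteins, had a change of 0.26 in C312S cells and 1.92 in WT cells. These changes are THZ531 minus YKL 500 nM. Against WT DMSO, THZ531 lowered RABGGTB (-0.27), RPL22L1 (-0.46) and SNHG12 (-0.49), and NCAPH was not called (0.06). For THZ531 minus YKL 500 nM, the WT medians were 0.52 for G2 and mitosis, 0.45 for S phase and 0.47 for ribosomal proteins. They were 1.17 for SNHG genes and -0.79 for histones. The C312S medians were 0.10, 0.01, 0.04, 0.04 and -0.16 in the same order. The difference between lines was called for 48 of 56 G2 and mitosis genes, 47 of 54 S phase genes, 66 of 79 ribosomal protein genes and 14 of 19 SNHG genes. The share over all genes tested was 46.5%. Lists below that share included oxidative phosphorylation (25 of 75), CDK12, CDK13 and their partners (14 of 38), and BCL2 family and cell death genes (9 of 23). The CDK-activating kinase and TFIIH list held 3 of 10. Some genes were called in both lines with no difference between lines called. COX20 rose by 0.72 in C312S cells and 0.67 in WT cells, with a difference of 0.06 (limma adjusted p = 0.716). PCK2 fell by 0.65 and 0.67 in those lines, with a difference of 0.03 (limma adjusted p = 0.841). BRCA1 had changes of -0.27 in C312S cells and -0.16 in WT cells, with a difference of -0.11 (limma adjusted p = 0.221).

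The deposited scaling leaves out changes in the total amount of RNA. The table also holds spike-in RNAs, though whether they were added per cell or per amount of RNA is not given in the labels. Relative to genes, the spike-in level was -0.80 ± 0.215 log2 units with THZ531 and -0.33 ± 0.0964 with YKL 500 nM (SD, n = 3 each). The THZ531 libraries were all the lower ones, with a difference of -0.46 by an exact two-sided permutation test (p = 0.1, the smallest that 3 against 3 allows). Scaled by spike-ins, the median gene stood 0.40 log2 units higher with THZ531, and 9536 genes were called, 99.2% of them higher. All directions in this text are therefore relative to the median gene; fewer cells and less RNA per cell cannot be told apart in bulk libraries.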

How the data were processed

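Poly(A) RNA from HAP1 cells was made into stranded libraries, per the labels' protocols. The authors deposited 1 table of FPKM values for 42 libraries; HISAT2 2.0.4, Cufflinks 2.2.1, Cuffnorm and hg19 are listed, per the submitters' processing notes, without order or settings. The 92 spike-in rows were left out of all tests. FPKM are no counts, so log2(FPKM + 1) was fitted with limma 3.58.1 (14 group means, trended spread, Benjamini-Hochberg adjustment) over 12816 of 26228 genes that reached 1 FPKM in 3 or more libraries; the fold scale understates changes of low genes. Total depth is not known; relative depth was read from the worth of 1 fragment in low genes. On simulated data of 12816 genes, the fit recovered 97% of genes changed by 0.5 log2 units and 57% of those changed by 0.25, of 100 each. There were 16 false calls among the genes left unchanged. The changed genes were drawn from the better expressed ones, and the simulated noise was independent between genes. It held no shared trend such as that with GC content, so these rates do not cover such trends in the data.

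Named genes were the 10 largest called rises and falls with libraries apart and a group mean of at least 5 FPKM, up to 2 rising and 2 falling members of each list, a panel of 21 genes, and the 6 largest differences between lines in each direction; not all genes that met the rule are reported here. The members, lists and panel were chosen with earlier results of these data known. Gene span, transcript length and GC content came from GENCODE v29 by symbol. Settings tried were the pseudocount, the filter, 3 scalings, the libraries that share the spread, a replicate block, single libraries left out and trends removed.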

Additional observations from a re-analysis of the deposited data

Results flagged for a closer look

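The difference between lines, C312S minus WT, in the change with THZ531 relative to YKL 500 nM was tested by limma, and 5960 genes passed an adjusted p of 0.05. Among the largest C312S falls, the change was smaller in C312S cells, and the difference was positive: it was 2.22 log2 units for TLCD1, 1.42 for UCP2, 1.18 for NDUFAF3, 0.87 for ORMDL2 and 0.85 for TMEM141. It was 0.78 for SLC25A11, 0.66 for PYCRL, 0.44 for MPI and 0.31 for DNASE1L1. Among the largest rises, CLEC2B (-0.41) and LARP1B (-0.98) rose less in C312S cells. ARRDC3 (0.48) and GLMN (0.58) rose in C312S cells and were not called in WT cells.

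In the panel, negative differences were those of CDK7 (-0.27), CDK12 (-0.58), CCNK (-0.18), HEXIM1 (-0.29), FANCA (-0.78), MYC (-0.47), E2F1 (-0.52) and RPL22L1 (-1.81). Positive differences were those of CDKN1A (1.60), HIST1H2BK (1.73), HIST1H2AC (1.09), POLR2A (0.39), CDK9 (0.25) and CCNE2 (0.49).

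The genes with the largest differences between lines also included NGFR (2.2), KANSL1-AS1 (2.14), IDNK (2.01) and HIST1H2AG (2.0), each lower with THZ531 in WT cells. SNAR-G1 had a difference of 2.04, with C312S libraries that ranged from 17.3 to 231 FPKM and overlapped. On the negative side stood the pseudogene row HNRNPA1P10 (-2.07), SNHG12 (-1.85), SNHG4 (-1.68), RABGGTB (-1.66) and NCAPH (-1.63).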

How the results depend on the processing

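The 3332 calls between THZ531 and YKL 500 nM in C312S cells became 9536 with spike-in scaling, and stayed between 2713 and 3717 under the other settings on all 6 libraries. With single libraries left out they numbered 2335 to 2926 in C312S cells, 8103 to 8203 in WT cells and 5532 to 5684 for the difference between lines. Spike-in scaling left 774 positive of 4626 differences between lines and 9782 higher of 10582 WT calls. The spike-in difference was -0.58 to -0.36 with single libraries left out and -0.58 on the 10 most abundant spike-ins. The replicate block gave 3441 calls in C312S cells, 8654 in WT cells and 6035 for the difference. Same-numbered libraries correlated at -0.002, -0.016 and 0.137, and the other pairs at -0.093 to 0.081. With 3 libraries a group, values this near 0 cannot tell whether the numbers pair libraries.

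Under spike-in scaling, which raised the median gene by 0.40, these genes turned positive: ATM (0.39), BAX (0.0659), BRCA1 (0.16), CDC20 (0.13), CDC25B (0.11), CDK9 (0.32), CDKN1A (0.12), H2AFX (0.11), HIST1H2AC (0.0255), INTS5 (0.0872), MUS81 (0.0561), NDUFA3 (0.0873), PMVK (0.15), POLR2A (0.23), POLR2E (0.26), POLR2G (0.0604), SYMPK (0.0832) and XPC (0.19). The spike-in scaling's own construction shifts all genes of a library alike. Over the genes named in the text and all settings, 1170 values kept direction and side of the threshold, 60 lost the call, 20 gained it and 18 reversed. Relative depth of 40.2% to 100% and 3 libraries a group limit calls of changes under 0.25 log2 units.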
